A study of Mus musculus with 69 samples.

Results

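The genes described here encode the translation initiation factors (eIF1 to eIF6) and elongation factors (eEF1 and eEF2) of the mouse, together with a few proteins that bind or modify them. They were taken by name: every gene symbol of the count tables that begins with Eif1 to Eif6, Eef1 or Eef2, without the Eif2ak kinases, Eef1e1 and pseudogene names, which gave 59 of the 24309 symbols shared by the tables. mRNA levels were measured by poly(A)+ RNA sequencing in CD8+ T cells, in CD4+ T cells of naive phenotype and in retrovirus-transduced cells, all from pooled lymph nodes and spleen. The mice differed in their germline alleles of the paralogs Stat5a and Stat5b. WT mice had all alleles (Stat5a+/+ Stat5b+/+), AAB mice retained a single Stat5b allele (Stat5a-/- Stat5b+/-), and BBA mice retained a single Stat5a allele (Stat5a+/- Stat5b-/-). The alleles are missing in all cells of the animals, so T cell-intrinsic and indirect differences cannot be told apart. The 48 CD8+ libraries comprised 2 replicates per genotype of naive (Tnv), central memory (Tcm) and effector memory (Tem) cells in each culture, which was without cytokine or under IL-15 for all 3 states and also under IL-7 for Tnv and Tcm. The 15 naive CD4+ libraries comprised, without cytokine, 3 WT, 2 AAB and 2 BBA replicates, and with IL-7, 3 WT, 2 AAB and 3 BBA replicates. In 4 further libraries, AAB cells carried a retrovirus for constitutively active STAT5A (CA-STAT5A) or an empty vector, with 2 replicates each. Per the study's methods, the transduced cells were stimulated with antibodies to CD3 and CD28 before transduction and cultured in IL-2 after it. For the libraries without retrovirus the sample labels give a culture of 12 to 16 h, whereas the study's methods describe the cells without cytokine as processed directly after sorting, so culture itself and cytokine cannot be told apart where cells with cytokine are set against cells without.

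Initiation begins when eIF2, loaded with GTP and initiator tRNA, joins the small ribosomal subunit with eIF1, eIF1A, eIF3 and eIF5. The eIF4 factors recruit this complex to the mRNA cap and unwind the leader, eIF2B recharges eIF2 with GTP, and eIF5B promotes joining of the large subunit. During elongation eEF1A delivers aminoacyl-tRNA, the eEF1B subunits recharge eEF1A, eEF2 translocates the ribosome, and eIF5A, the only protein known to carry hypusine, helps the ribosome form difficult peptide bonds. T cells enlarge this machinery when they leave the resting state, and IL-7 and IL-15, which signal through the shared γ chain and STAT5, keep naive and memory T cells alive.

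Promoters are shown for the 4 factor genes that were called in the most WT against BBA comparisons and had a sequence window free of annotated exons. For Eif5a, Eef2k and Eif4a1, only windows that held the sequence CACGTG were considered. Each is the 250 bases upstream of a RefSeq start site (assembly GRCm38.p6), written 5′ to 3′ on the strand of the gene, and capitals mark the E-box CACGTG, a sequence that MYC and related factors bind.
Eif5a, chr11:69921387-69921636, minus strand: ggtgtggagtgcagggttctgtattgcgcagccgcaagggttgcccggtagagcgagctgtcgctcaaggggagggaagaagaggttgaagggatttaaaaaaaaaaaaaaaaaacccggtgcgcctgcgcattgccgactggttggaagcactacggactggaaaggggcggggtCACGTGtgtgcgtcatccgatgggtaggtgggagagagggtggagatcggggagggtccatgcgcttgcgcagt
Eef2k, chr7:120842581-120842830, plus strand: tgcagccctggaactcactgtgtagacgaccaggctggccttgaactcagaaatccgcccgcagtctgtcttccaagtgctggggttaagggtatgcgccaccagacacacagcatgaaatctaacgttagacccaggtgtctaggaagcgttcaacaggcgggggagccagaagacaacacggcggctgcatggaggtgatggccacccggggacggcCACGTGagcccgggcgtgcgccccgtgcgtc
Eif3b, chr5:140419055-140419304, plus strand: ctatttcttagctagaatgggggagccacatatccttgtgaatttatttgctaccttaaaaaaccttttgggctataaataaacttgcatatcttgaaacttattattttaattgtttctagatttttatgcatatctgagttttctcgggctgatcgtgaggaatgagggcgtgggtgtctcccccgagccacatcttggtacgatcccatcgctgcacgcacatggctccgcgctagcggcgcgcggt
Eif4a1, chr11:69672424-69672673, minus strand: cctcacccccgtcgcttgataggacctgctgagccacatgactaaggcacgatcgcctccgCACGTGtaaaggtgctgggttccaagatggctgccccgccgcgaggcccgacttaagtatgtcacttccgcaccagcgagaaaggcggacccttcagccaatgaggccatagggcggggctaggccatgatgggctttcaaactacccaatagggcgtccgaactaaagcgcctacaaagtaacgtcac

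The E-box began at base -74 of the Eif5a start site, at -31 of Eef2k and at -189 of Eif4a1. Its presence in these windows was fixed by their choice, and the Eif3b window held none. The Eif5a window precedes 1 of 6 start sites annotated for the gene and lies inside the annotated gene. The Eif5a windows chr11:69920581-69920880 and chr11:69921226-69921525 also held 1 match each to CACGTG. The latter overlaps the window shown and holds the same E-box. The remaining windows of Eif5a and Eef2k had 0 matches to CACGTG. Among them, the Eef2k window chr7:120843350-120843649 held 1 match to the STAT motif TTCNNNGAA. RefSeq promoter windows (250 bases before to 50 after a start site) were found for 45 of the 59 factor genes. On either strand, 12 of them (26.7%) had CACGTG in at least 1 window, as did 8.09% of all genes with windows and 12.4% of the 7665 genes with windows that were tested in Tcm with IL-15. The STAT motif TTCNNNGAA was in windows of 4 factor genes (8.89%), beside 9.55% of all genes and 8.49% of those tested. Both motifs read the same on the opposite strand and cannot overlap each other. These matches describe the windows and carry no test.

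Total counts per library were 5926139 to 25612758 in CD8+ cells, 6705004 to 34118295 in CD4+ cells and 11020965 to 16516525 in transduced cells. The factor genes took 2.285% to 4.077% of the counts of a CD8+ library, 2.321% to 3.14% in CD4+ cells and 1.805% to 2.455% in transduced cells. Stat5a was at most 4.869 CPM (read counts scaled to library size with TMM factors) in the AAB libraries of both lineages and at least 32.27 CPM in those of WT. Stat5b was at 48.6 to 135 CPM in BBA, 78.1 to 202 CPM in AAB and at least 163.1 CPM in WT, so that BBA libraries lay below every WT library but overlapped those of AAB, and the reads do not show the absence of Stat5b in BBA. By Xist and Y-linked genes, 38 CD8+ libraries were female and 10 male, all 6 Tnv libraries with IL-7 were male while those without cytokine were female, and all mapped CD4+ libraries were male. The transduced libraries go against their label of CD8+ T cells, with Cd8a at 1.395 to 3.166 CPM and the NK cell receptor gene Ncr1 at 1124 to 1453 CPM.

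Levels per length, as CPM per kilobase of exon, differed widely among factor genes in WT Tnv without cytokine. Eef1a1, which encodes the tRNA carrier eEF1A, was highest at 6959 ± 399 (SD, n = 2), followed by Eef2 at 2164 ± 62.7, and by the eEF1B subunits Eef1b2 at 428.8 ± 7.14 and Eef1g at 422.2 ± 8.54. Among the initiation factors Eif3h was at 316 ± 21.9, Eif1 at 236.5 ± 16, Eif5a at 197.4 ± 3.39, and the paralogous helicases Eif4a2 and Eif4a1 were at 145.8 ± 19.2 and 128.7 ± 4.81, within their spread of each other, with Eif4a3 at 54.91 ± 0.464. Eif5a2, the paralog of Eif5a, was at 1.867 ± 0.259. Eif4e, the cap-binding subunit, was at 9.769 ± 1.15, Eef2k, the kinase that inhibits eEF2, at 5.472 ± 0.451, Eif4ebp1 at 4.089 ± 0.227 and Eif2b3 at 2.985 ± 0.0345. At the bottom, Eef1a2 reached at most 1.136 CPM in any CD8+ library, Eif4e1b at most 23 counts, Eif3j1 at most 5 counts, and Eif3j2 had 0 counts in every library. The Y-linked Eif2s3y was at 86.7 to 120.1 CPM in male CD8+ libraries and at most 0.504 CPM in female ones. Reads of Eef1a1, Eif4a1, Eif5a, Eif1 and other genes with processed pseudogenes, and of Eif3j1 and Eif3j2, can be shared with a near-identical copy, and their levels are uncertain to that extent.

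**Figure D1:**
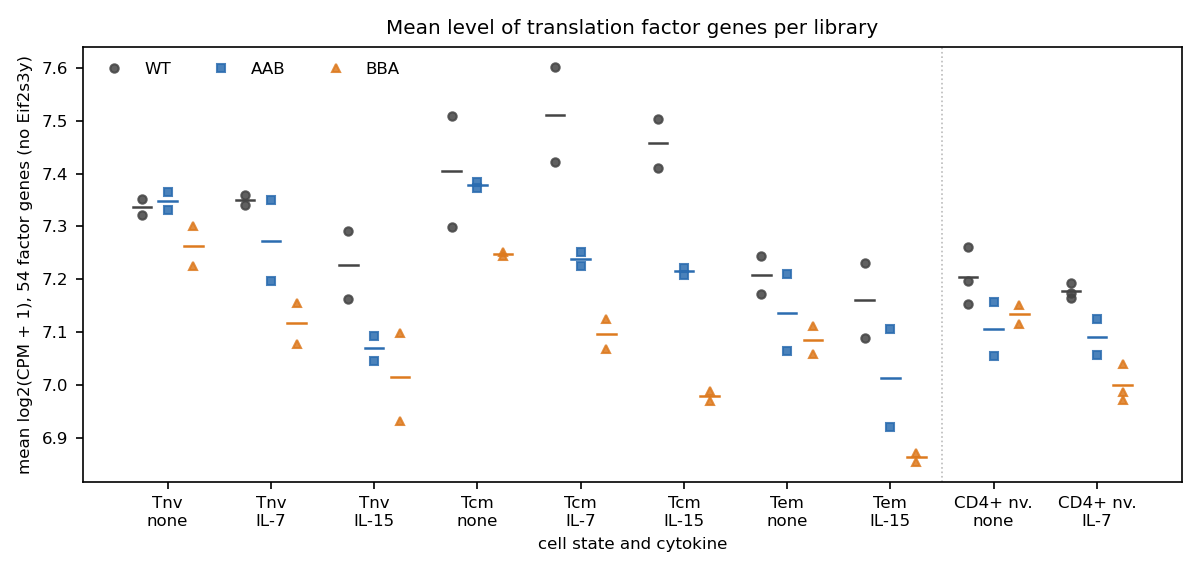
Mean of log2(CPM + 1) over the 54 expressed factor genes other than the Y-linked Eif2s3y, one point per library, by cell state and cytokine (x axis). Horizontal lines are group means, grey circles WT, blue squares AAB and orange triangles BBA. The BBA means are below the WT means in all 10 conditions, with the widest gaps in Tcm with IL-15 and Tcm with IL-7.

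The mean level of the factor genes was lower in BBA than in WT cells in every condition. Over the 55 members with a mean of at least 10 counts per library, mean log2(CPM + 1) in WT minus BBA was 0.0736 in Tnv, 0.152 in Tcm, 0.122 in Tem and 0.0663 in CD4+ cells without cytokine. The pooled SDs within genotypes were 0.0408, 0.103, 0.0438 and 0.0441 in this order. In CD4+ cells without cytokine the libraries overlapped, with the lowest WT library at 7.143 and the highest BBA library at 7.144. With IL-7 the difference was 0.223 in Tnv, 0.464 in Tcm and 0.172 in CD4+ cells, against pooled SDs of 0.0374, 0.0938 and 0.0263. With IL-15 it was 0.209 in Tnv, 0.469 in Tcm and 0.296 in Tem, against pooled SDs within genotypes of 0.104, 0.0466 and 0.0755. In WT minus AAB it ranged from -0.0103 in Tnv without cytokine to 0.325 in Tcm with IL-7, and was 0.238 in Tcm with IL-15. These differences carry no test. They moved when single libraries were left out: without cytokine, WT minus BBA was 0.0357 in Tnv without BBA replicate 2 and 0.111 without BBA replicate 1, 0.049 in Tcm without WT replicate 1 and 0.255 without WT replicate 2, and 0.0399 in CD4+ cells without WT replicate 3. In Tnv with IL-15 it was 0.126 without BBA replicate 2 and 0.291 without BBA replicate 1. WT minus AAB changed sign in Tnv without cytokine (0.0059 without AAB replicate 1, and above 0 also without WT replicate 2), in Tnv with IL-7 (-0.00085 without AAB replicate 2), in Tcm without cytokine (-0.077 without WT replicate 1) and in Tem without cytokine (-0.00155 without AAB replicate 2). In Tcm with IL-7 sex differed with genotype, as both WT libraries were male and the AAB and BBA groups had 1 male each: without Eif2s3y the mean levels were 7.60 and 7.42 in WT and 7.13 and 7.07 in BBA. Scaled by the plain total instead of TMM, the Tcm differences were 0.36 with IL-15 and 0.29 with IL-7. In bulk libraries, fewer cells of a type and less RNA per cell cannot be told apart.

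The comparison of WT with BBA in Tcm with IL-15 asked what the loss of all STAT5B and 1 STAT5A allele does under this cytokine, and it called the most factor genes of the 10 conditions. Calls required a difference above 1.5-fold together with an adjusted p below 0.05 (edgeR's quasi-likelihood test, Benjamini-Hochberg adjustment over all genes tested), and log2 fold changes are WT over the deficient genotype. Counts of calls in refits, here and below, come without the share of all genes called in the same refit. They show how calls depend on processing and are no result about the factor genes relative to all genes. Of 54 factor genes tested, 20 were called, all higher in WT, by 1.5-fold to 3.39-fold. Among all 9944 genes tested 23.5% were called and 11.8% were higher in WT. By adjusted p alone, 30 factor genes were higher in WT and 0 lower, beside 19.9% of all genes higher. The median log2 fold change was 0.47 over the factor genes and -0.02 over all genes, and 49 of 54 factor genes were above 0, beside 48.3% of all. Refits that each left out 1 of the 6 libraries called 13 to 23 factor genes, with 13 without WT replicate 1.

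**Figure D2:**
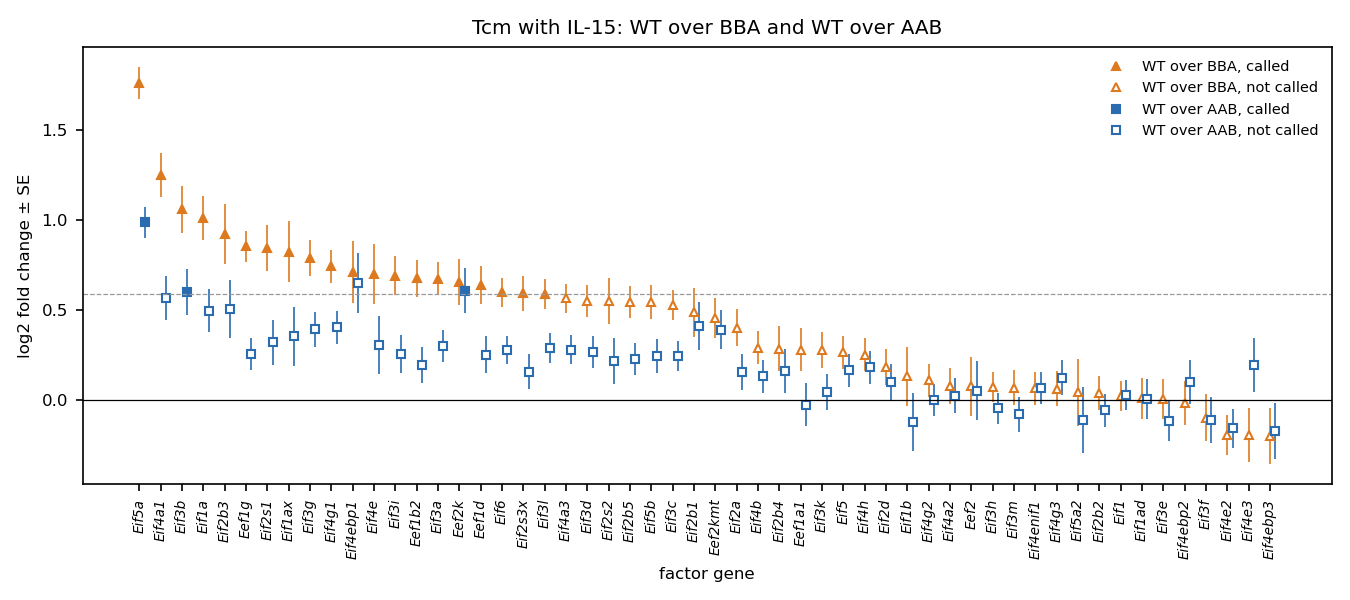
Log2 fold change ± SE of each of the 54 tested factor genes in Tcm with IL-15 (y axis), ordered by WT over BBA. Orange triangles are WT over BBA, blue squares WT over AAB, filled symbols are called genes and the dashed line is a 1.5-fold difference; Eif5a, Eif4a1 and Eif3b lead, and the medians over the genes are 0.47 for WT over BBA and 0.19 for WT over AAB.

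Eif5a differed most. Its level was 1008 and 982 CPM in the WT libraries, 470 and 505 CPM in AAB, and 276 and 288 CPM in BBA, from 2796 to 17372 counts. The 3 genotypes did not overlap, and the order WT, AAB, BBA held with each step past the test. The log2 fold change was 1.76 ± 0.088 (SE, n = 2 per genotype, edgeR adjusted p = 9.52e-05) for WT over BBA, 0.98 ± 0.086 (adjusted p = 0.00409) for WT over AAB and 0.78 ± 0.087 (adjusted p = 0.0062) for AAB over BBA. Its paralog Eif5a2 was at 14.6 and 12.9 CPM in WT and 14.6 and 11.1 CPM in BBA, which overlap.

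Among the eIF4 genes, which bind the cap and unwind the mRNA leader, 3 of 11 tested were called. The helicase gene Eif4a1 was at 894 and 732 CPM in WT, 548 and 517 CPM in AAB and 345 and 313 CPM in BBA, and its log2 fold change was 1.25 ± 0.12 (edgeR adjusted p = 0.000627). Its close paralog Eif4a2 was at 481 and 487 CPM in WT, 480 and 443 CPM in AAB and 466 and 415 CPM in BBA, where AAB and BBA overlapped and WT lay just above AAB. Eif4a3, the helicase of the exon junction complex, was higher in WT by adjusted p alone, at 0.56 on the log2 scale. The scaffold gene Eif4g1 was at 606 and 629 CPM in WT, 425 and 480 CPM in AAB and 348 and 361 CPM in BBA (0.74 ± 0.093), while its relatives Eif4g2 and Eif4g3 did not pass the test. Eif4e was at 78.8 and 59.4 CPM in WT and 44.3 and 37.6 CPM in BBA (0.70 ± 0.17), and the alternative cap-binding genes Eif4e2 and Eif4e3 did not pass. Of the genes for eIF4E inhibitors and its shuttle, 1 of 4 was called: Eif4ebp1 was at 14.9 and 14.2 CPM in WT, 8.49 and 9.54 CPM in AAB and 8.67 and 8.44 CPM in BBA, from at least 88 counts. Here AAB lay with BBA, whereas Eif4ebp2, the more abundant inhibitor, was at 204 and 231 CPM in WT and 189 and 233 CPM in BBA.

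Of the 12 eIF3 subunits tested, 5 were called. Eif3b, a core scaffold subunit, was at 347 and 383 CPM in WT, 211 and 257 CPM in AAB and 154 and 183 CPM in BBA, a log2 fold change of 1.06 ± 0.13 (edgeR adjusted p = 0.00127). The other called subunits were Eif3g at 0.79 ± 0.099, Eif3i at 0.69 ± 0.11, Eif3a at 0.67 ± 0.09 and Eif3l at 0.59 ± 0.083. Eif3a, Eif3b, Eif3g and Eif3i belong to the subcomplex that yeast also has, together with Eif3c, which was at 0.53 and, like Eif3d at 0.55, passed by adjusted p alone. The subunits Eif3e, Eif3f, Eif3h, Eif3k and Eif3m did not pass at any fold. Eif3f, picked as an example after its values were seen, was at 402 and 467 CPM in WT and 407 and 487 CPM in BBA, and the groups overlapped.

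Among the genes of scanning and start codon choice, 2 of 6 were called, and these were the paralogs that encode eIF1A. Eif1a was at 80.4 and 68.1 CPM in WT, 52.3 and 49.8 CPM in AAB and 37.8 and 33 CPM in BBA (log2 fold change 1.01 ± 0.12), and Eif1ax was at 70.9 and 52.4 CPM in WT, 49.3 and 44.2 CPM in AAB and 36.6 and 30.6 CPM in BBA (0.82 ± 0.17). Eif1 was at 314 and 300 CPM in WT and 279 and 301 CPM in BBA. Of the eIF2 genes and related tRNA carriers, 2 of 5 were called, the α subunit gene Eif2s1 (125 and 104 CPM in WT, 65.8 and 56.9 CPM in BBA, 0.84 ± 0.13) and the X-linked γ subunit gene Eif2s3x (0.59 ± 0.097). All 6 of these libraries were female. Of the eIF2B subunits, 1 of 5 was called, Eif2b3 at 24.6 and 19.1 CPM in WT and 10.6 and 11.5 CPM in BBA (0.92 ± 0.17). Of the subunit-joining genes, Eif6, which keeps the ribosomal subunits apart, was called at 0.60 ± 0.079 and Eif5b passed by adjusted p alone.

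Of the 5 elongation factor genes tested, the 3 subunits of eEF1B were called, while Eef1a1, whose product eEF1B recharges, and Eef2 were not. Eef1g was at 1360 and 1333 CPM in WT, 1070 and 1119 CPM in AAB and 695 and 738 CPM in BBA (log2 fold change 0.85 ± 0.088, edgeR adjusted p = 0.000712). Eef1b2 differed by 0.67 ± 0.1 and Eef1d by 0.64 ± 0.1. Eef1a1 was at 14817 and 12737 CPM in WT and 11064 and 10748 CPM in BBA, which did not overlap but did not pass the test, and Eef2 was at 5320 and 6407 CPM in WT and 4634 and 6061 CPM in BBA, which overlap. Eef2k was at 64.8 and 61.5 CPM in WT, 43.5 and 36.9 CPM in AAB and 41.5 and 35.6 CPM in BBA (0.66 ± 0.13). With an adjusted p of 0.05 or above, 24 of the 54 factor genes lay between -0.20 and 0.28.

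For WT over AAB in Tcm with IL-15, 3 factor genes were called, Eif5a (0.98), Eef2k (0.61 ± 0.12, edgeR adjusted p = 0.0353) and Eif3b (0.60 ± 0.13, adjusted p = 0.0392), while 2.57% of all genes were higher in WT. The median over the factor genes was 0.19, beside -0.01 over all genes. Leaving out WT replicate 1 or either AAB library left 1 call. For AAB over BBA, 3 were called, Eif5a (0.78), Eif4a1 (0.68 ± 0.12) and Eef1g (0.60 ± 0.087), and 3.15% of all genes were higher in AAB. Leaving out AAB replicate 2 or either BBA library left 1 call. The factor genes took 3.31% ± 0.0891 (SD, n = 2) of all counts in WT, 3.17% ± 0.0113 in AAB and 2.74% ± 0.041 in BBA libraries of Tcm with IL-15.

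Other markers moved with genotype in the same libraries. The summed level of 4 detected genes of 5 on the CD8+ T cell list was 3656 and 3251 CPM in WT, 3824 and 3511 CPM in AAB and 2963 and 2812 CPM in BBA. The B cell list (4 of 5 genes) summed to 89.5 and 164 CPM in WT, 66.5 and 182 CPM in AAB and 182 and 383 CPM in BBA, and the proliferation list (5 genes) to 131 and 122 CPM in WT, 75.4 and 144 CPM in AAB and 85.7 and 52 CPM in BBA. The myeloid list summed to 9.29 and 7.15 CPM in WT, 9 and 23.8 CPM in AAB and 51.1 and 26.4 CPM in BBA. The naive T cell list (4 genes) summed to 2597 and 2764 CPM in WT, 3056 and 3051 CPM in AAB and 3627 and 3910 CPM in BBA. No detected gene of the CD8+, B cell and proliferation lists was at 0 in these libraries. Their part in the result was not tested.

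**Figure D3:**
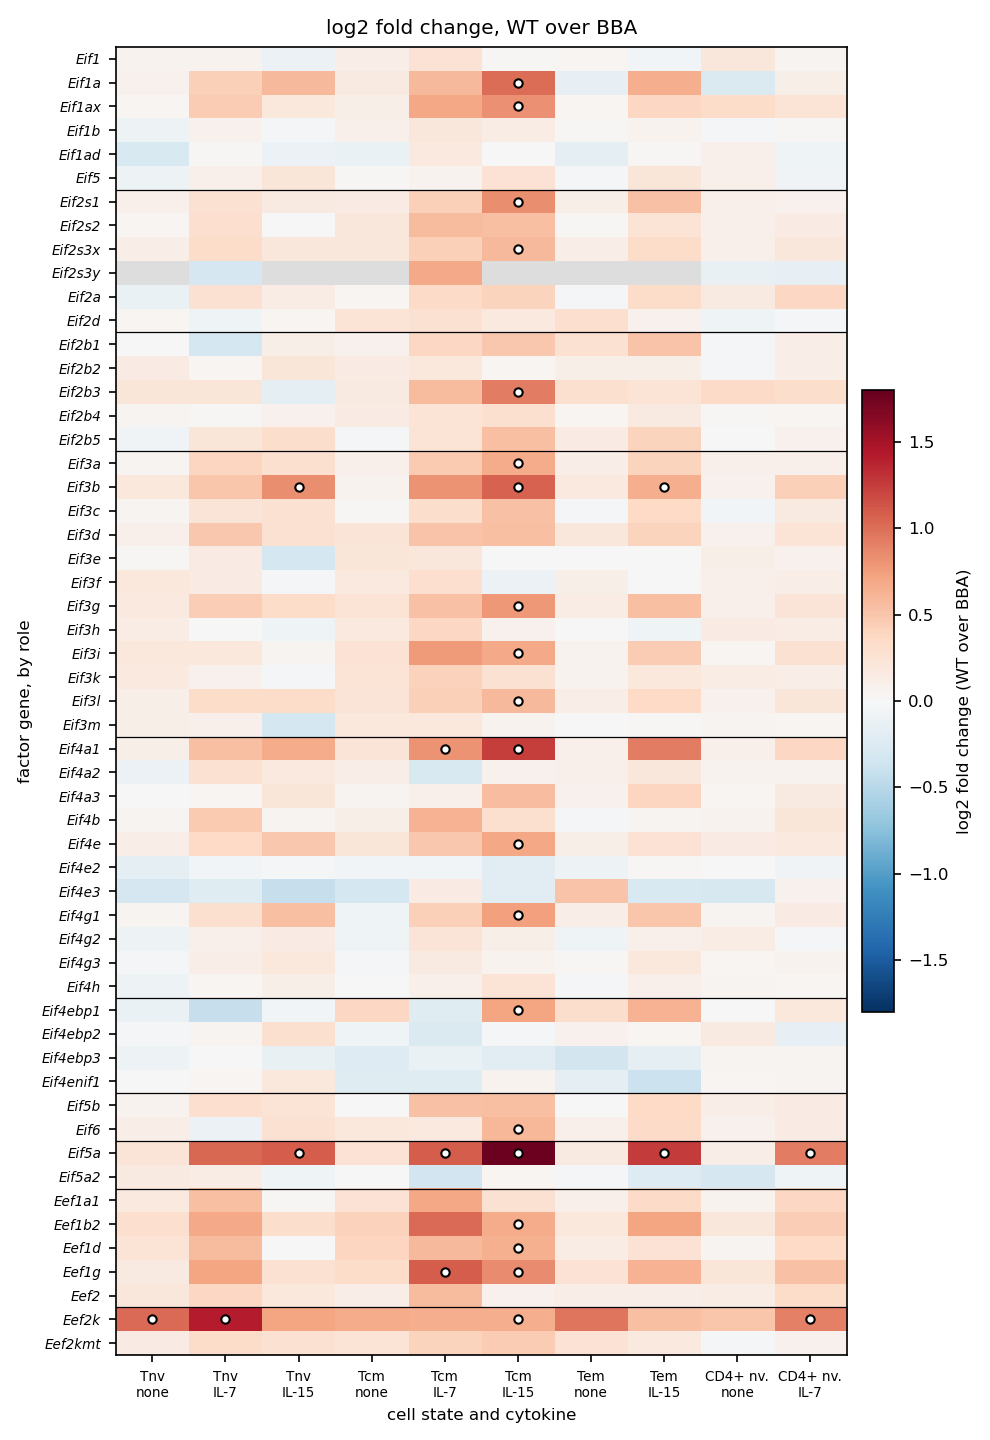
Log2 fold change of WT over BBA for each tested factor gene (rows, grouped by role between the black lines) in the 10 conditions (columns), from blue (lower in WT) to red (higher in WT). White dots mark called genes, grey cells were not tested, and the column of Tcm with IL-15 holds 20 dots.

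In the other 9 conditions, WT over BBA called few factor genes, and every one was higher in WT. The fits differed in the spread between replicates, given as a coefficient of variation beyond counting error. It was 11.96% in Tcm with IL-15, 22.78% in Tcm with IL-7, 29.55% in Tem with IL-15, 18.08% in Tnv with either cytokine and 10.83% in Tnv without. Counts of calls depend on this spread and do not rank effect sizes. The median log2 fold change over the factor genes was 0.38 in Tcm with IL-7. In Tnv without cytokine Eef2k alone was called, at 38.2 and 42.9 CPM in WT, 32.6 and 29.6 CPM in AAB and 21.6 and 18.5 CPM in BBA (log2 fold change 1.02 ± 0.12, edgeR adjusted p = 0.00604), while 1.48% of all genes were higher in WT. In Tnv with IL-7 it was again Eef2k, at 70.4 and 56.5 CPM in WT, 54.4 and 44.1 CPM in AAB and 25.4 and 22.4 CPM in BBA (1.42 ± 0.18, adjusted p = 0.0164), beside 1.54% of all genes. That call was lost without either WT or either BBA library, and 4 genes were called without either AAB library. Eif5a was at 782 and 713 CPM in WT, 774 and 472 CPM in AAB and 413 and 320 CPM in BBA and was not called there. Markers also moved with genotype in Tnv with IL-7. The memory or effector list summed to 36.6 and 47.8 CPM in WT, 217.5 and 91.1 CPM in AAB and 285.2 and 184.3 CPM in BBA. The naive T cell list was at 3420 and 3558 CPM in WT, 3596 and 4039 CPM in AAB and 4325 and 4359 CPM in BBA. The part of these in the result was not tested. Blocking on the replicate number (replicate block), since same-numbered Tnv libraries deviated together, gave 4 calls under IL-7 and 5 under IL-15.

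In Tnv with IL-15, Eif5a was at 598 and 510 CPM in WT, 300 and 326 CPM in AAB and 255 and 252 CPM in BBA (1.09 ± 0.15, edgeR adjusted p = 0.00618). Eif3b was at 257 and 254 CPM in WT, 155 and 177 CPM in AAB and 127 and 153 CPM in BBA (0.83 ± 0.14, adjusted p = 0.0131). Both genes were higher in WT than in either deficient genotype without overlap, and 2.51% of all genes were called higher in WT over BBA. WT replicate 2 stood apart from the other 5 libraries of Tnv with IL-15: its CD4+ T cell list summed to 326.5 CPM (8.45 to 18.4 CPM in the others), its CD8+ T cell list to 1978 CPM (2692 to 2994 CPM) and its proliferation list to 73.28 CPM (19.3 to 35.9 CPM). Their part in the result was not tested. Without that library, WT over BBA called 3 factor genes, Eif5a was at 1.22 and Eif3b at 0.86, and both kept the call. For WT over AAB, 0 factor genes were called in Tnv by edgeR in any of the 3 cultures. At an unadjusted p under 0.05 there were 6 without cytokine, 1 under IL-7 and 7 under IL-15. In the same order, 765 of 9750, 976 of 10157 and 1389 of 9913 of all genes tested had such a p. DESeq2 called 0, 0 and 2, and the replicate block gave 3 under IL-15. Among all genes 0.164%, 0.256% and 0.726% were called.

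In Tcm without cytokine, 0 factor genes were called for WT over BBA and 0 for WT over AAB by edgeR, with 4 and 1 at an unadjusted p under 0.05 and 0 each by DESeq2, and the replicate block called 1 for WT over BBA. Among all 10122 genes tested 0.277% and 0.0395% were called, and 981 and 387 had an unadjusted p under 0.05. In Tcm with IL-7, Eif5a (786 and 921 CPM in WT, 657 and 578 CPM in AAB, 406 and 361 CPM in BBA), Eef1g (1776 and 1260 CPM in WT, 892 and 972 CPM in AAB, 688 and 667 CPM in BBA) and Eif4a1 (782 and 843 CPM in WT, 643 and 620 CPM in AAB, 465 and 421 CPM in BBA) were called, and 1.43% of all genes were higher in WT. Their log2 fold changes were 1.09 ± 0.18, 1.09 ± 0.2 and 0.81 ± 0.16 (edgeR adjusted p = 0.0355, 0.0424 and 0.0483). These calls were lost without either AAB or either BBA library, with sex as a term or with the replicate block, and the number of calls changed without either WT library. For WT over AAB 0 were called, with 10 at an unadjusted p under 0.05 and 1 by DESeq2, and the number of calls changed without WT replicate 2. Refits without a WT library rest on 1 WT library, and their share of all genes called is not given. Among all 10099 genes tested 0.0594% were called and 1148 had an unadjusted p under 0.05. Markers also moved with genotype in Tcm with IL-7. The B cell list summed to 38.7 and 17.8 CPM in WT, 82 and 44 CPM in AAB and 241 and 144 CPM in BBA. The proliferation list was at 253 and 168 CPM in WT, 111 and 99.6 CPM in AAB and 67.7 and 112 CPM in BBA, and the memory or effector list at 1328 and 791 CPM in WT, 370 and 521 CPM in AAB and 444 and 561 CPM in BBA. The myeloid list was at 158 and 108 CPM in WT, 29.4 and 30.8 CPM in AAB and 88.2 and 202 CPM in BBA. The part of these in the result was not tested.

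In Tem without cytokine, 0 factor genes were called for WT over BBA and 0 for WT over AAB by edgeR, with 2 and 1 at an unadjusted p under 0.05, and DESeq2 called 1 and 0. For WT over BBA, the replicate block and the refit without BBA replicate 2 called 1 each. Among all 10171 genes tested 0.206% and 0.0197% were called, and 1099 and 817 had an unadjusted p under 0.05. In Tem with IL-15, Eif5a was at 605 and 467 CPM in WT, 356 and 311 CPM in AAB and 215 and 222 CPM in BBA (1.26 ± 0.15, edgeR adjusted p = 0.0312). Eif3b was at 245 and 240 CPM in WT, 161 and 173 CPM in AAB and 146 and 157 CPM in BBA (0.65 ± 0.098, adjusted p = 0.0447). The libraries of the genotypes did not overlap, 1.18% of all genes were higher in WT, 6 factor genes were called with the replicate block, and both calls were lost whichever library was left out. For WT over AAB 0 were called, with 3 at an unadjusted p under 0.05, 1 by DESeq2 and 1 with the block. Among all 10183 genes tested 0.0196% were called and 741 had an unadjusted p under 0.05.

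In naive CD4+ cells without cytokine, 0 factor genes were called for WT over BBA and 0 for WT over AAB by edgeR. There were 1 and 5 at an unadjusted p under 0.05, and DESeq2 called 0 each. Among all 10154 genes tested 1.13% and 0.355% were called, and 996 and 809 had an unadjusted p under 0.05. With IL-7, Eif5a was at 415, 498 and 423 CPM in WT, 402 and 334 CPM in AAB and 208, 271 and 221 CPM in BBA. All WT libraries exceeded all AAB libraries, and these all BBA libraries. WT over BBA called Eif5a (0.93 ± 0.12, edgeR adjusted p = 0.00169) and Eef2k (32.5, 28.2 and 25.8 CPM in WT, 26.4 and 24.7 CPM in AAB, 11.3, 18.8 and 15.9 CPM in BBA, 0.90 ± 0.17, adjusted p = 0.0119), while 2.62% of all genes were higher in WT. By adjusted p alone 12 factor genes were higher in WT, beside 6.24% of all genes. Without WT replicate 1 there was 1 call. WT over AAB called 0 by edgeR and by DESeq2, with 8 at an unadjusted p under 0.05. Among all 9488 genes tested 0.611% were called and 1076 had an unadjusted p under 0.05. AAB over BBA called Eif5a (0.65 ± 0.13, adjusted p = 0.0472), a call lost when any library but BBA replicate 2 was left out, and 0.885% of all genes were higher in AAB.

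**Figure D4:**
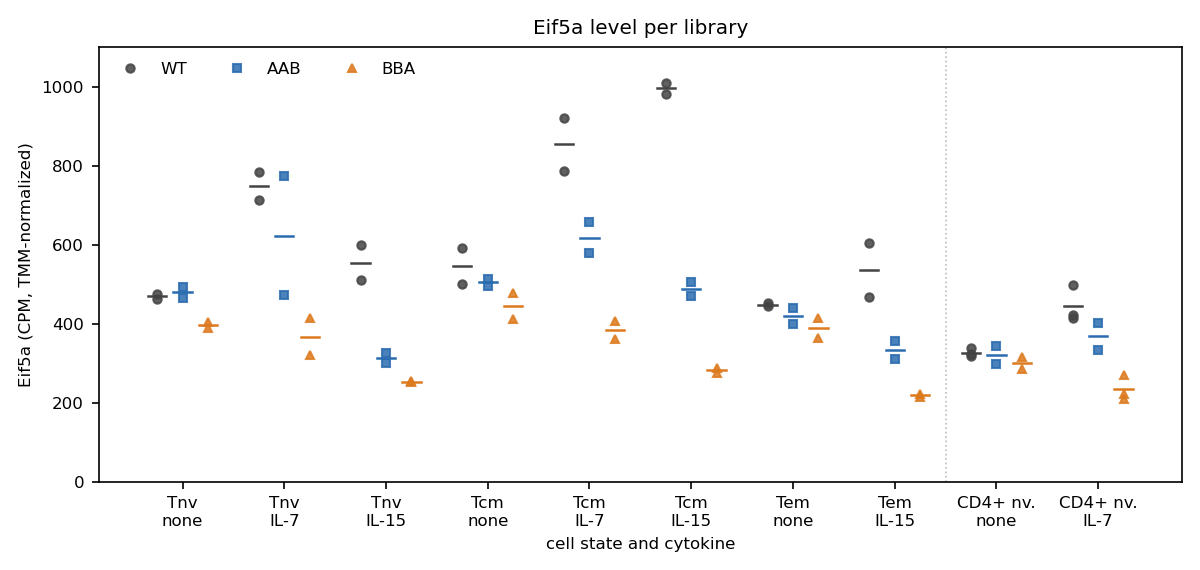
Eif5a level (TMM-normalized CPM, y axis from 0) in each CD8+ and naive CD4+ library by cell state and cytokine; lines are group means, grey circles WT, blue squares AAB and orange triangles BBA. WT libraries reach 1008 CPM in Tcm with IL-15 and BBA libraries stay at or below 477 CPM throughout.

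Eif5a, called in 5 of the 10 conditions, and Eef2k, called in 4, were the factor genes most often lower in BBA. WT exceeded BBA in all 10 conditions for both, by log2 fold changes from 0.12 to 1.76 for Eif5a and from 0.51 to 1.42 for Eef2k, and also for Eif3b (0.07 to 1.06), Eif4a1 (0.09 to 1.25) and Eef1g (0.15 to 1.09). This was not particular to these genes. It also held for many other factor genes, among them Eef1a1, Eef1b2, Eef1d, Eef2, Eif3a and Eif4e. The share of all genes with this pattern is not given. In Tnv without cytokine, Eif5a was at 475 and 464 CPM in WT, 494 and 464 CPM in AAB and 390 and 403 CPM in BBA and was not called, whereas Eef2k was. Eif4e2 lay below 0 in 8 of 10 conditions, between -0.20 and 0.02. Across the means of the 24 CD8+ groups, the genes whose log2 level followed Eif5a most closely among 13258 included Pa2g4 (r = 0.9775), Ppat (0.9742), Psme3 (0.9725) and Lap3 (0.9714). Among the factor genes it was Eif4a1 (0.9654), at rank 8, then Eif3l (0.945), Eif1a (0.9364), Eif2s1 (0.9325) and Eif1ax (0.9267). These correlations share libraries and are a description.

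The response to IL-15 in Tcm asked how each genotype differed from its cells without cytokine, and Eif5a went in opposite directions. In WT it rose from 591 and 500 CPM to 1008 and 982 CPM (log2 fold change 0.88 ± 0.11, edgeR adjusted p = 0.00105). In AAB it was at 513 and 496 CPM without cytokine and 470 and 505 CPM with it, and in BBA it fell from 412 and 477 CPM to 276 and 288 CPM (-0.64 ± 0.11, adjusted p = 0.00514). In WT cells Eef2k also rose (0.73), from 36 and 40.6 CPM to 64.8 and 61.5 CPM, and Eif1 (-0.63) and Eif4a2 (-0.62) fell, so 4 of 54 factor genes were called beside 8.62% of all genes. In BBA cells Eef2k also rose (0.73) and Eif3b, Eif4a1 (-0.64 each) and Eif4a2 (-0.59) fell with Eif5a, 5 calls beside 9.02% of all genes. The median over the factor genes was 0.06 in WT and -0.30 in BBA, beside 0.02 and -0.02 over all genes. In AAB cells edgeR and DESeq2 called 0, with 11 at an unadjusted p under 0.05. Among all 10281 genes tested 3.69% were called and 2151 had an unadjusted p under 0.05. The WT calls were 2 without either WT library with IL-15, and those of BBA were 0 without BBA replicate 2 without cytokine, 1 without replicate 1 with IL-15 and 2 without replicate 2 with IL-15.

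**Figure D5:**
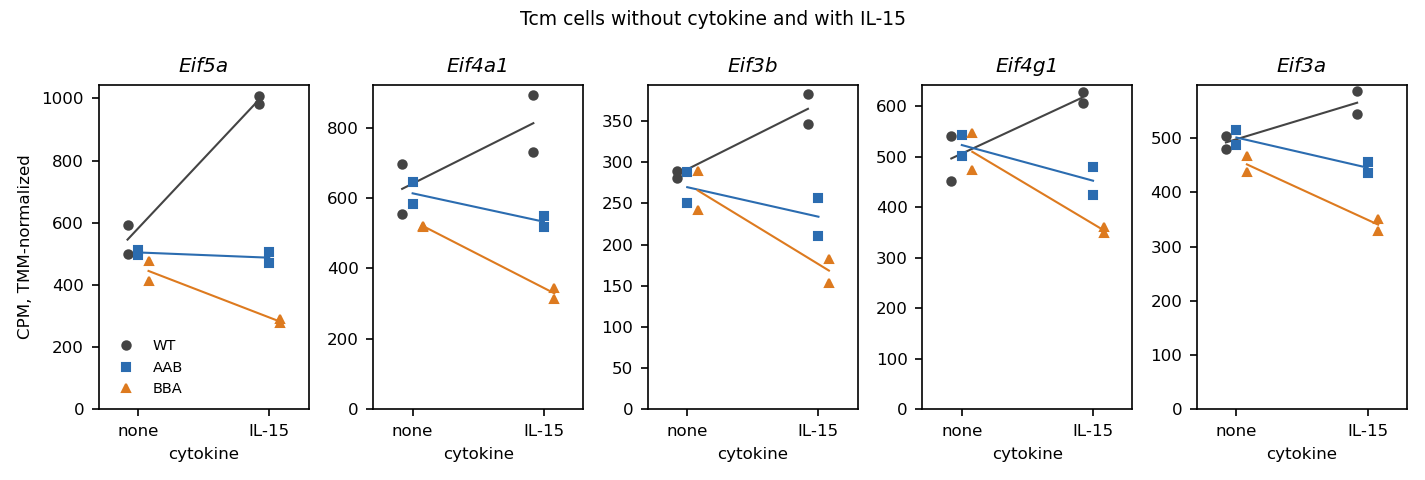
TMM-normalized CPM (y axes from 0, one scale per gene) of the 5 factor genes whose response to IL-15 differed between WT and BBA Tcm, without cytokine and with IL-15, one point per library; lines join group means, grey circles WT, blue squares AAB and orange triangles BBA. WT and BBA lie closer to each other without cytokine than with IL-15, where WT is above and BBA below.

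The difference between these responses was tested as an interaction. WT minus BBA was called for 5 factor genes, with every value above 0: Eif5a (1.52 ± 0.149, edgeR adjusted p = 0.00111), Eif4a1 (1.03 ± 0.192), Eif3b (1.01 ± 0.19), Eif4g1 (0.83 ± 0.166) and Eif3a (0.60 ± 0.125). Among all 10281 genes tested 7.73% were called, 536 above 0 and 259 below. The 5 of 54 factor genes called lay near this share. Without cytokine Eif4g1 was at 452 and 540 CPM in WT and 473 and 547 CPM in BBA, overlapping, and Eif3a was at 504 and 480 CPM in WT and 437 and 467 CPM in BBA, next to 586 and 545 CPM and 352 and 329 CPM with IL-15. The count was 9 with a replicate block and 2 to 13 when a library was left out. It fell to 2 without WT replicate 1, BBA replicate 1 or BBA replicate 2 with IL-15 or BBA replicate 2 without cytokine, to 3 without WT replicate 2 with IL-15, and was 13 without WT replicate 1 without cytokine. WT minus AAB was called for 0 factor genes, with 8 at an unadjusted p under 0.05, 1 by DESeq2 and 1 with the replicate block. Among all 10281 genes tested 0.126% were called and 1031 had an unadjusted p under 0.05.

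In Tnv, the response to IL-15 called 1 factor gene in WT, 5 in AAB and 7 in BBA, nearly all lower with IL-15. Calls over all 10260 genes tested also rose in this order, with 305, 641 and 708 lower and 360, 965 and 1324 higher. In WT, Eif1 fell from 472 and 520 CPM to 315 and 284 CPM (-0.71 ± 0.1) and was the only call, beside 6.48% of all genes. In AAB, Eif1 (-0.61), Eif3b (-0.68), Eif4a2 (-0.62), Eif5a (-0.59) and Eif5b (-0.61) fell, beside 15.7% of all genes. In BBA, Eif3b (-0.72), Eif4a1 (-0.59), Eif4a2 (-0.73), Eif4g1 (-0.66), Eif4g2 (-0.61) and Eif5a (-0.60) fell and Eef2k rose (0.75), beside 19.8% of all genes. The AAB calls were 2 without AAB replicate 2 with IL-15 and 3 without either AAB library without cytokine, and the BBA calls were 3 without replicate 2 without cytokine, 4 without replicate 2 with IL-15 and 10 without replicate 1 with IL-15. The interaction was called for Eif5a alone, in WT minus BBA (0.86 ± 0.146, edgeR adjusted p = 0.0183) and in WT minus AAB (0.85 ± 0.146, adjusted p = 0.0483), beside 2.54% and 0.351% of all genes. The first was lost without either WT or either BBA library without cytokine, and the count was 3 without BBA replicate 2 with IL-15 and 2 with the replicate block, and the second without any 1 library other than the BBA libraries with IL-15. In Tem with IL-15, WT had 0 calls by edgeR and DESeq2 with 4 at an unadjusted p under 0.05, AAB had Eif4a2 (-0.64), and in BBA Eef1b2 (-0.78), Eif4a1 (-0.73), Eif4a2 (-0.63) and Eif5a (-0.84) fell while Eif4e3 rose (0.80). The AAB call was lost in 9 of 12 refits that each left out a library. Among all 10485 genes tested 1.69%, 2% and 7.46% were called, and 1610 had an unadjusted p under 0.05 in WT. The 5 BBA calls were 0 without BBA replicate 2 with IL-15, 1 without either BBA library without cytokine, and 3 without either WT library without cytokine. The Tem interactions had 0 calls for WT minus BBA and for WT minus AAB, with 7 and 2 at an unadjusted p under 0.05. DESeq2 called 1 and 0, and the replicate block 1 and 0. Among all 10485 genes tested 0.00954% and 0% were called, and 811 and 341 had an unadjusted p under 0.05.

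With IL-7 in Tnv, Eef2k and Eif1a rose in WT (0.64 and 0.60) and AAB (0.66 and 0.73), Eif5a rose in WT (0.66 ± 0.2), and Eif3h fell in WT (-0.63) and AAB (-0.59). The abundant elongation factor genes Eef1a1 and Eef2 fell in AAB (-0.61 and -0.79) and BBA (-0.62 and -0.61), with Eef2 at 6051 and 6398 CPM without cytokine and 4324 and 3865 CPM with IL-7 in BBA. Eef1d fell in AAB (-0.59) and the X-linked Eif2s3x in BBA (-0.63). The Y-linked Eif2s3y was called in all 3 genotypes. All libraries without cytokine were female and those with IL-7 male, so that sex and IL-7 cannot be told apart here. Calls numbered 5 in WT, 7 in AAB and 4 in BBA, beside 19.5%, 13.9% and 10.9% of all genes. The interactions had 0 calls by edgeR and DESeq2, with 8 for WT minus BBA and 4 for WT minus AAB at an unadjusted p under 0.05. Among all 10238 genes tested 2.46% and 0.293% were called, and 1713 and 879 had an unadjusted p under 0.05. The WT calls were 1 to 3 without any 1 WT library, the AAB calls 3 without replicate 2 without cytokine and 11 without replicate 1 with IL-7, and the BBA calls 2 without replicate 1 without cytokine and 1 without replicate 2 with IL-7.

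With IL-7 in Tcm, sex moved with culture: all Tcm libraries without cytokine were female, whereas with IL-7 both WT libraries and 1 each of AAB and BBA were male, so that sex and IL-7 cannot be told apart in WT and sex was unbalanced in the interactions. There, edgeR called 0 factor genes in WT, AAB and BBA, with 7, 11 and 9 at an unadjusted p under 0.05, and DESeq2 called 2, 3 and 1. Among all 10409 genes tested 0.259%, 0.605% and 1.45% were called, and 1540, 1999 and 2218 had an unadjusted p under 0.05. Both interactions had 0 calls, with 8 for WT minus BBA and 7 for WT minus AAB at an unadjusted p under 0.05. DESeq2 called 2 and 0. Among all 10409 genes 0.0865% and 0.00961% were called in these interactions, and 1155 and 720 had an unadjusted p under 0.05. In naive CD4+ cells Eef2k was higher with IL-7 than without cytokine in each genotype, by 1.35 ± 0.23 in WT, 1.02 ± 0.28 in AAB and 0.95 ± 0.27 in BBA. In WT it was at 14.4, 7.83 and 11.5 CPM without cytokine and 32.5, 28.2 and 25.8 CPM with IL-7. Eef1b2 was lower with IL-7 in BBA (-0.59 ± 0.15). The AAB call was lost without AAB replicate 2 without cytokine or either AAB library with IL-7, both BBA calls without BBA replicate 2 without cytokine, and the replicate block called 2 in WT and 1 in BBA. Among all genes 16.2%, 13.1% and 13.6% were called. The interaction was called for Eif5a in WT minus BBA (0.81 ± 0.166, edgeR adjusted p = 0.0291), beside 1.11% of all genes. This call was lost in 8 of 15 refits that each left out a library, among them those without any WT or BBA library without cytokine. In WT minus AAB, edgeR and DESeq2 called 0 factor genes, with 0 at an unadjusted p under 0.05. Among all 10402 genes tested 0.0192% were called there and 330 had an unadjusted p under 0.05. IL-15 was also set against IL-7: WT minus BBA and WT minus AAB had 0 calls by edgeR in Tnv, with 1 and 4 at an unadjusted p under 0.05, 0 by DESeq2 and 1.05% and 0.0291% of all genes called, and 0 calls in Tcm (4 and 9 without WT replicate 2 with IL-7), with 5 and 3 at an unadjusted p under 0.05, 1 and 0 by DESeq2 and 0.126% and 0.029% of all genes called. Over all genes, 1067 and 790 of 10325 tested in Tnv and 834 and 815 of 10352 in Tcm had an unadjusted p under 0.05.

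Between cell states of WT cells without cytokine, 1 factor gene was called for Tcm over Tnv and 2 for Tem over Tcm. Eif4e3, which encodes an alternative cap-binding protein, was at 28.1 and 27.4 CPM in Tnv, 17.4 and 18.9 CPM in Tcm and 33.5 and 38.2 CPM in Tem. It was lower in Tcm than in Tnv (-0.60 ± 0.13, edgeR adjusted p = 0.0179) and higher in Tem than in Tcm (0.99 ± 0.13, adjusted p = 0.0022). Eef1b2 was lower in Tem than in Tcm (-0.66 ± 0.15, adjusted p = 0.0346), with 799 and 735 CPM against 1408 and 1042 CPM. For Tem over Tnv 0 were called by edgeR and DESeq2, with 17 at an unadjusted p under 0.05. Among all genes 3.4% were called for Tcm over Tnv, 8.18% for Tem over Tnv and 2.26% for Tem over Tcm. Of 10412 genes tested, 2338 had an unadjusted p under 0.05 for Tem over Tnv and 1555 for Tem over Tcm. For Tem over Tcm, 5 of 54 factor genes were above 0, beside 48.3% of all genes, 22 had an unadjusted p under 0.05, and the median was -0.19, beside -0.01 over all genes. The call in Tcm over Tnv was lost without either WT Tnv library or WT Tcm replicate 1. Those of Tem over Tcm were 5 without WT Tcm replicate 2 and 1 without any other single WT library or any AAB library of Tnv or Tcm.

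In the transduced AAB cells, CA-STAT5A asked what active STAT5A does where Stat5a is absent. The study's methods describe stimulation through CD3 and CD28 and culture in IL-2 for transduced cells, with no separate culture for the empty vector. Stat5a reads were at 59.7 and 60.7 CPM with CA-STAT5A and 8.42 and 3.21 CPM with empty vector. No factor gene was called: 0 of 55 by edgeR and 0 by DESeq2, with 5 at an unadjusted p under 0.05. Among all 10354 genes tested 6.63% were called and 2114 had an unadjusted p under 0.05. Leaving out empty vector replicate 1 gave 1 call. The 5 factor genes at an unadjusted p under 0.05 were Eef1g (-0.51 ± 0.147), Eef2k (-0.40 ± 0.116), Eif5a2 (0.84 ± 0.258), Eef1b2 (-0.56 ± 0.211) and Eif3i (-0.26 ± 0.104). Eif5a was at 401 and 495 CPM with CA-STAT5A and 448 and 482 CPM with empty vector, and the groups overlapped. Eif5a2 was at 17.5 and 17.9 CPM against 12.4 and 7.48 CPM, and Eef2k at 117 and 131 CPM against 155 and 173 CPM. The median over the factor genes was -0.11, beside 0.00 over all genes. Replicate 1 of each vector was male and replicate 2 female. The NK cell list (3 genes) summed to 1829 to 2165 CPM and the CD8+ T cell list (4 of 5 genes) to 14.8 to 120.1 CPM in these libraries, and the myeloid list was at 1594 and 1415 CPM with CA-STAT5A and 780.9 and 658.3 CPM with empty vector. The part of these in the result was not tested.

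Other genes of translation control moved with the factors. From a list of 47 such genes, 44 were tested in Tcm with IL-15, and 12 were called higher in WT than in BBA and 0 lower (23 and 1 by adjusted p alone), with a median log2 fold change of 0.35, beside 11.8% of all genes called higher in WT. The polyamine enzyme genes Srm (2.48 ± 0.129) and Odc1 (1.54 ± 0.109), which make the spermidine from which hypusine is built, were among them, with Dohh (0.67 ± 0.105), which completes hypusine on eIF5A, while Dhps, which starts it, was at -0.09 ± 0.111. The translation repressor and stabilizer gene Larp1 (1.03 ± 0.0883), the ribosome recycling gene Abce1 (1.07 ± 0.109), and the release factor genes Gspt1 (0.73 ± 0.0938) and Etf1 (0.60 ± 0.105) were also higher in WT, as were Larp4, Pabpc4, Bzw2, Eef1e1 and Tsfm. The stress kinases of eIF2, Eif2ak1 to Eif2ak4, did not pass the test, nor did Mtor (0.02 ± 0.0912), Mknk1 and Mknk2. WT over AAB called Srm (1.16 ± 0.119) and Odc1 (0.97 ± 0.106), beside 2.57% of all genes. The interaction of IL-15 and genotype in Tcm was called for 8 of the list in WT minus BBA, all above 0. Beside this, 7.73% of all genes were called, 536 above 0 and 259 below. In the other conditions WT over BBA called 6 higher in WT in Tcm with IL-7 (1.43% of all genes), 4 in Tnv with IL-15 (2.51%), 3 in CD4+ cells with IL-7 (2.62%), 2 each in Tnv with IL-7 (1.54%) and Tem with IL-15 (1.18%), 1 in CD4+ cells without cytokine (1.13% called in either direction) and 0 in the others, and Eif2ak2 was called lower in WT in Tnv with IL-15.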

How the data were processed

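The authors deposited raw read counts per gene symbol in 3 tables, for CD8+, naive CD4+ and transduced cells. Per the study's methods, single-end poly(A)+ reads were aligned to mm10 with tophat2 and counted with htseq-count, whereas the submitters' processing notes name mm9, TopHat2, Cufflinks and HTSeq. The use of strand is not given in the sources used here, so overlapping and antisense genes cannot be told apart from each other. Gene positions and lengths come from a GRCm38 annotation matched by symbol. Of 69 samples 67 were mapped to groups from the labels, and 2 CD4+ samples whose labels contradict each other were not.

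Each condition was fitted with its 3 genotypes in edgeR 4.0.16 (R 4.3.3): TMM normalization, the quasi-likelihood F test in its older form and Benjamini-Hochberg adjustment. Genes were kept above a threshold of normalized counts that maximized the Jaccard index between replicates, among 100 thresholds from 1 to 200 (loess span 0.3). Responses and interactions were fitted on the 3 genotypes of both cultures, cell states on all CD8+ libraries without cytokine. CPM used TMM factors of the kept genes of each table, with levels not set across tables, and a pseudocount of 1 on the log2 scale. Replicates are separate samples per the labels, none of 38 replicate pairs agreed within counting error (chi-square over its degrees of freedom, 5.749 to 100.8), and the study describes RNA-seq replicates as mice, although the labels tie no library to an animal, so p-values measure the spread between these samples. Same-numbered libraries deviated together in 22 of 24 pairs of CD8+ groups (r above 0.1, range -0.0578 to 0.723, the exceptions in Tcm with IL-7) and in 6 of 6 CD4+ pairs (0.18 to 0.456), so counts with the replicate number as a block are given where they changed. Summary rows, 67% to 68.4% of the transduced columns, were left out.

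Genes named are the called factor genes, their paralogs, and members of a list of 47 genes of translation control. Factor genes given as examples of ones that did not pass were picked after their values were seen. Of the genes most alike Eif5a, 1 is not reported here. Members and lists were chosen with earlier results of these data known. Filters, normalizations, DESeq2 1.42.0, a sex term and each library left out were tried as alternatives, and the fits were tested on simulated data.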

Additional observations from a re-analysis of the deposited data

Results flagged for a closer look

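The response to a cytokine differed between genotypes by an interaction test (edgeR's quasi-likelihood test, Benjamini-Hochberg adjusted p under 0.05 and more than 1.5-fold) for 8 gene and contrast pairs, all with a more positive response in WT. In Tcm with IL-15, WT minus BBA on the log2 scale was 1.516 for Eif5a (adjusted p = 0.00111), 1.03 for Eif4a1 (0.0116), 1.006 for Eif3b (0.0122), 0.8272 for Eif4g1 (0.0158) and 0.5993 for Eif3a (0.0184). In Tnv with IL-15, Eif5a differed by 0.8627 in WT minus BBA (0.0183) and by 0.8488 in WT minus AAB (0.0483). In naive CD4+ cells with IL-7, Eif5a differed by 0.8114 in WT minus BBA (0.0291). Among all genes 7.73% were called in Tcm with IL-15 in WT minus BBA, 536 above 0 and 259 below. In Tnv with IL-15, 2.54% were called in WT minus BBA (99 above 0 and 162 below) and 0.351% in WT minus AAB (28 above 0 and 8 below). In naive CD4+ cells with IL-7, 1.11% were called in WT minus BBA, 93 above 0 and 22 below. Comparisons of WT with BBA and of WT with AAB share the WT libraries.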

How the results depend on the processing

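The comparison of WT with BBA in Tcm with IL-15 gave 20 calls and stayed within 1.5 times that number under every other setting except without a filter on low counts (31) and without WT replicate 1 (13). The 97 named gene and comparison pairs are those called in the main fits of the same libraries. A reversal was therefore unlikely from the start, and its absence is little support. Of their fold changes, 644 values under other settings kept direction and side of the threshold, 49 lost the call and 0 reversed. With a library left out, 734 were kept, 241 lost the call and 0 reversed. Depth limits genes such as Eif4ebp1 and Eif2b3, with 88 and 108 counts in their lowest libraries of that comparison. The replicate block moved no count by over 1.5 times other than those given. Leaving out Eif2s3y, and leaving out libraries for the mean levels, were chosen after seeing the data. The cause of the changes below was not tested. Cultures without cytokine are written as alone, and counts are calls among the factor genes. The share of all genes called under each setting is not given. The counts below therefore show how calls depend on processing and are no result about the factor genes relative to all genes.

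Under a single fit of each lineage, genotype comparisons had 0 in Tnv alone WT over BBA, 3 each in Tnv IL-7 WT over BBA and Tnv IL-15 WT over AAB, 17 in Tcm IL-7 WT over BBA, 2 in Tcm IL-7 WT over AAB and 7 in Tem IL-15 WT over BBA. Under a single fit of each lineage, cytokine responses had 4 each in Tcm IL-7 WT and Tcm IL-7 AAB and 3 in Tcm IL-7 BBA. With a single fit of each lineage, interactions had 0 each in Tnv IL-15 WT minus BBA and Tnv IL-15 WT minus AAB, 2 in Tcm IL-7 WT minus BBA and 1 in Tem IL-15 WT minus BBA. Under a single fit of each lineage, the remaining contrasts had 0 in Tcm over Tnv and 1 in Tem over Tcm. Under no filter on low counts, genotype comparisons had 5 each in Tnv IL-7 WT over BBA and Tcm IL-15 WT over AAB, 11 each in Tnv IL-15 WT over BBA and Tcm IL-15 AAB over BBA, 2 in Tnv IL-15 WT over AAB, 1 each in Tcm alone WT over BBA and Tem alone WT over BBA, 18 in Tcm IL-7 WT over BBA, 3 in Tcm IL-7 WT over AAB and 31 in Tcm IL-15 WT over BBA. Under no filter on low counts, cytokine responses had 4 in Tnv IL-7 AAB, 10 in Tnv IL-15 AAB, 14 in Tnv IL-15 BBA, 1 in Tcm IL-7 WT, 3 in Tcm IL-7 AAB, 2 in Tcm IL-7 BBA, 13 in Tcm IL-15 BBA and 0 in Tem IL-15 AAB. With no filter on low counts, interactions had 1 in Tnv IL-7 WT minus BBA, 2 in Tnv IL-15 WT minus BBA and 15 in Tcm IL-15 WT minus BBA. Under no filter on low counts, the remaining contrasts had 1 in CA-STAT5A. Under DESeq2 in place of edgeR, genotype comparisons had 4 each in Tnv IL-7 WT over BBA and Tnv IL-15 WT over BBA, 2 each in Tnv IL-15 WT over AAB and CD4+ IL-7 AAB over BBA, 10 in Tcm IL-7 WT over BBA, 1 each in Tcm IL-7 WT over AAB, Tem alone WT over BBA and Tem IL-15 WT over AAB and 5 in Tem IL-15 WT over BBA. Under DESeq2 in place of edgeR, cytokine responses had 2 in Tcm IL-7 WT, 3 in Tcm IL-7 AAB and 1 each in Tcm IL-7 BBA and CD4+ IL-7 BBA. With DESeq2 in place of edgeR, interactions had 2 each in Tnv IL-15 WT minus BBA, Tnv IL-15 WT minus AAB and Tcm IL-7 WT minus BBA and 1 each in Tcm IL-15 WT minus AAB, Tem IL-15 WT minus BBA and Tcm IL-15 over IL-7 WT minus BBA. Under the replicate block, genotype comparisons had 4 in Tnv IL-7 WT over BBA, 5 in Tnv IL-15 WT over BBA, 3 in Tnv IL-15 WT over AAB, 1 each in Tcm alone WT over BBA, Tem alone WT over BBA and Tem IL-15 WT over AAB, 0 in Tcm IL-7 WT over BBA and 6 in Tem IL-15 WT over BBA. Under the replicate block, cytokine responses had 2 in CD4+ IL-7 WT and 1 in CD4+ IL-7 BBA. With the replicate block, interactions had 2 in Tnv IL-15 WT minus BBA, 9 in Tcm IL-15 WT minus BBA and 1 each in Tcm IL-15 WT minus AAB and Tem IL-15 WT minus BBA. Under edgeR's filterByExpr filter, genotype comparisons had 7 each in Tnv IL-15 WT over BBA, Tcm IL-7 WT over BBA and Tcm IL-15 AAB over BBA, 1 in Tnv IL-15 WT over AAB, 6 in Tcm IL-15 WT over AAB and 0 in Tem IL-15 WT over BBA. Under edgeR's filterByExpr filter, cytokine responses had 12 each in Tnv IL-15 AAB and Tcm IL-15 BBA, 16 in Tnv IL-15 BBA, 0 in Tem IL-15 AAB and 2 in Tem IL-15 BBA. With edgeR's filterByExpr filter, interactions had 0 in Tnv IL-15 WT minus AAB and 11 in Tcm IL-15 WT minus BBA. Under the newer quasi-likelihood form of edgeR, genotype comparisons had 5 in Tcm IL-7 WT over BBA. With the newer quasi-likelihood form of edgeR, interactions had 2 in Tnv IL-15 WT minus BBA. Under a sex term, genotype comparisons had 0 in Tcm IL-7 WT over BBA. Under no limit on the fold, genotype comparisons had 5 in Tcm IL-15 WT over AAB, 8 in Tcm IL-15 AAB over BBA and 12 in CD4+ IL-7 WT over BBA. Under no limit on the fold, cytokine responses had 15 each in Tnv IL-7 WT, Tnv IL-7 AAB, Tnv IL-15 AAB and Tnv IL-15 BBA, 13 each in Tnv IL-7 BBA and CD4+ IL-7 WT, 2 each in Tnv IL-15 WT and Tcm IL-15 AAB, 17 in Tcm IL-15 BBA, 6 in CD4+ IL-7 AAB and 20 in CD4+ IL-7 BBA. With no limit on the fold, interactions had 10 in Tcm IL-15 WT minus BBA. Under no limit on the fold, the remaining contrasts had 2 in Tem over Tnv and 4 in Tem over Tcm. Under DESeq2 size factors, cytokine responses had 1 in CD4+ IL-7 BBA. With DESeq2 size factors, interactions had 0 in Tnv IL-15 WT minus AAB. Under WT libraries alone in the fit, cytokine responses had 1 in Tcm IL-7 WT and 2 each in Tcm IL-15 WT and CD4+ IL-7 WT. Under scaling by the plain total, mean level differences were 0.29 in Tcm IL-7 WT minus BBA, 0.177 in Tcm IL-7 WT minus AAB, 0.36 in Tcm IL-15 WT minus BBA, 0.17 in Tcm IL-15 WT minus AAB, 0.0755 in Tem alone WT minus BBA and 0.145 in CD4+ IL-7 WT minus BBA. Under all 59 genes in the mean, mean level differences were 0.41 in Tcm IL-15 WT minus BBA.

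Leaving out each library in turn gave these lowest and highest values. Genotype comparisons had 0 to 4 in Tnv IL-7 WT over BBA, 0 to 18 in Tcm IL-7 WT over BBA, 0 to 12 in Tcm IL-7 WT over AAB, 13 to 23 in Tcm IL-15 WT over BBA, 1 to 3 in Tcm IL-15 WT over AAB, 1 to 3 in Tcm IL-15 AAB over BBA, 0 to 1 in Tem alone WT over BBA, 0 to 0 in Tem IL-15 WT over BBA, 1 to 2 in CD4+ IL-7 WT over BBA and 0 to 2 in CD4+ IL-7 AAB over BBA. Cytokine responses had 1 to 5 in Tnv IL-7 WT, 3 to 11 in Tnv IL-7 AAB, 1 to 6 in Tnv IL-7 BBA, 2 to 5 in Tnv IL-15 AAB, 3 to 10 in Tnv IL-15 BBA, 0 to 2 in Tcm IL-7 WT, 0 to 2 in Tcm IL-7 AAB, 2 to 4 in Tcm IL-15 WT, 0 to 1 in Tcm IL-15 AAB, 0 to 5 in Tcm IL-15 BBA, 0 to 1 in Tem IL-15 AAB, 0 to 5 in Tem IL-15 BBA, 1 to 2 in CD4+ IL-7 WT, 0 to 2 in CD4+ IL-7 AAB and 0 to 3 in CD4+ IL-7 BBA. Interactions had 0 to 1 in Tnv IL-7 WT minus BBA, 0 to 3 in Tnv IL-15 WT minus BBA, 0 to 1 in Tnv IL-15 WT minus AAB, 0 to 3 in Tcm IL-7 WT minus BBA, 0 to 3 in Tcm IL-7 WT minus AAB, 2 to 13 in Tcm IL-15 WT minus BBA, 0 to 1 in CD4+ IL-7 WT minus BBA, 0 to 4 in Tcm IL-15 over IL-7 WT minus BBA and 0 to 9 in Tcm IL-15 over IL-7 WT minus AAB. The remaining contrasts had 0 to 1 in Tcm over Tnv, 1 to 5 in Tem over Tcm and 0 to 1 in CA-STAT5A. Mean level differences were 0.0357 to 0.111 in Tnv alone, 0.049 to 0.255 in Tcm alone and 0.126 to 0.291 in Tnv IL-15 WT minus BBA, -0.0265 to 0.0059 in Tnv alone WT minus AAB and 0.0495 to 0.12 in CD4+ IL-7 WT minus AAB.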

Other observations

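2 naive CD4+ libraries have labels that disagree on whether IL-7 was present, and they entered no group. In the one from AAB cells Eif5a was at 318 CPM, Eef2k at 10.3 CPM, Eif4a1 at 506 CPM and Eef1g at 792 CPM, with 13485027 total counts. In the one from BBA cells Eif5a was at 337 CPM, Eef2k at 5.19 CPM, Eif4a1 at 545 CPM and Eef1g at 820 CPM, with 10713517 total counts.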
